A study of Mus musculus with 3 samples.

Results

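The genes described here are 34 of the 32285 genes counted in the files: 33 genes known as transcriptional targets of p53, and Trp53, the gene of p53 itself in the mouse. They were picked by symbol and not by a cut on their values, but with earlier results of these data known. All 34 were found, 33 under their own symbol and Tp53i11 under Trp53i11, which RefSeq lists for the same gene. The study read single cells of the mouse cornea and limbus, the ring where the cornea meets the vascularised rim of the eye, with 10x Genomics droplets. Each of 3 groups was 1 library, and the design names 1 mouse for each: uninjured, exposed to nitrogen mustard (NM) with saline as treatment, and exposed to NM with losartan, a blocker of the type 1 angiotensin II receptor. All groups share the wild-type genotype. The sources used here do not give the NM dose, the time between injury and collection, the losartan dose and route, or the age and strain of the mice. The tissue was the front of the eye after the lens, iris, trabecular tissue and retina had been taken off and most conjunctiva trimmed, and it was broken up with enzymes. With 1 library a group no difference has a replicate check, so no p-value is given, and every interval below covers counting error only.

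NM is an alkylating agent that cross-links DNA strands. Cells answer such damage by activating the kinases Atm and Atr, which free p53 from Mdm2, the ubiquitin ligase that otherwise keeps its protein level low, so that p53 activity is mostly set on the protein and not on its mRNA. Active p53 binds a short DNA element near its targets and raises genes that stop the cell cycle (Cdkn1a, which encodes p21), start apoptosis (Bax, Pmaip1, Bbc3), aid repair (Ddb2, Xpc, Polk) and shut p53 down again (Mdm2, Ccng1). In the cornea the epithelium renews from basal and limbal cells, while keratocytes of the stroma, vessel cells and Schwann cells of the corneal nerves divide little.

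Sequences before the start of 4 members show where the p53 consensus element lies, because they hold the closest match among the members (Cdkn1a), a member with 1 mismatch and high ratios in several classes (Ccng1), the pore former of apoptosis (Bax), and a member that was lower after injury (Sesn1). They come from RefSeq on GRCm38.p6, are written 5′ to 3′ on the gene's strand, end at the base before the first annotated exon, and carry in capitals the 2 parts of 10 bases that make up the element.
Cdkn1a, chr17:29090729-29090975, plus strand: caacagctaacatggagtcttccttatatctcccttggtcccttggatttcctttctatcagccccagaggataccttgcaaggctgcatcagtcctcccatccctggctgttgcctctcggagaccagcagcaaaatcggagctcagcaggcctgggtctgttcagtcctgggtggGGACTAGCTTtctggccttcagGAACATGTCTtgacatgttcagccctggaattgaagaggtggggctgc
Ccng1, chr11:40755312-40755536, minus strand: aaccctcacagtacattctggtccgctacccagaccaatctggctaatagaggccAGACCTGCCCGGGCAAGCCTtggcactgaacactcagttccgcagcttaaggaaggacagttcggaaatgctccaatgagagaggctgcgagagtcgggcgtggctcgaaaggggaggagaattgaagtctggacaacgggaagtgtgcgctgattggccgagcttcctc
Bax, chr7:45466899-45467148, minus strand: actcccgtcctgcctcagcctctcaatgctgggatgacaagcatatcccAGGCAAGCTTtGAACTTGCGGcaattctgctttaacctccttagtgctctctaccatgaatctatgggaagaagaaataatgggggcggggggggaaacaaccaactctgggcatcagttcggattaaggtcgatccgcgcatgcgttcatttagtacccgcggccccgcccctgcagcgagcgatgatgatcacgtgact
Sesn1, chr10:41887189-41887438, plus strand: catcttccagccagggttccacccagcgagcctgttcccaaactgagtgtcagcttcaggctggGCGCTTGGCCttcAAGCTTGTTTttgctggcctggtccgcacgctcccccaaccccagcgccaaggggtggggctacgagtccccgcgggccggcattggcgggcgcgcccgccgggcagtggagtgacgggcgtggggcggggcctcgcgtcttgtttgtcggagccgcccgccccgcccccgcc
The Cdkn1a element had 0 mismatches with the p53 consensus and a spacer of 12 bases, and ran from 73 to 42 bases before the outer of 2 annotated starts. In the window of the inner Cdkn1a start the best match had 5 mismatches. The 10 bases right after the second part of the printed element also match the consensus except for the first base. Pairing them with that part, without a spacer, gives 1 mismatch. The Ccng1 element had 1 mismatch and a spacer of 0 bases, as did that of Gtse1, and both the Bax and the Sesn1 element had 2 mismatches. The Sesn1 window lies before the inner of 2 annotated starts and within an intron of the longer transcript. RefSeq windows of 300 bases (250 before to 50 after a start) were found for 26 of the 34 members, and 7 of the 26 (26.9%) held a full p53 consensus with at most 2 mismatches: Cdkn1a, Ccng1, Gadd45a, Gtse1, Ckap2, Bax and Sesn1. Among all 27025 genes with a window, 4.71% held one, and 20 genes held one with no mismatch. The search used both parts with a spacer of 0 to 13 bases, a fixed core C and G in each, and both strands, on which this palindromic element reads alike. A match is a run of letters, not a site shown to be bound, and members without one in this window may have one elsewhere.

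After filtering, 11233 uninjured, 5800 NM + saline and 4919 NM + losartan cells remained, with 144178199, 68063041 and 84471857 unique molecular identifiers (UMIs, each standing for 1 captured mRNA molecule). Cells were grouped without the members' own counts and named from marker genes. Clusters 8 and 20, with 1042 and 272 cells, all uninjured, scored closest to epithelium. They were left unnamed as shallow, with medians of 3599 and 1224.5 UMIs a cell, and no epithelial level below includes them. Epithelial cells numbered 9263, 1114 and 1940 in the uninjured, NM + saline and NM + losartan libraries, stromal cells 419, 700 and 706, vascular endothelial cells 41, 15 and 28, mural cells (the pericytes and smooth muscle of vessels) 88, 0 and 37, and Schwann cells 97, 28 and 4. Neutrophils and macrophages were almost confined to the injured libraries (1, 3013 and 1383 neutrophils, and 4, 663 and 383 macrophages), so they have no uninjured level. All 11 epithelial markers (led by Krt12 or Krt14), all 10 stromal (led by Dcn), all 11 vascular endothelial and all 10 mural markers (led by Rgs5 or Acta2) were found in their own class in every library that was compared, and 9 of 10 Schwann markers in the NM + saline cells, where Gfra3 was at 0. Between libraries 56 cell barcodes recurred: 21 between uninjured and NM + saline, 28 between uninjured and NM + losartan, and 7 between the 2 injured libraries.

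Levels are given in CPM, the gene's share of all UMIs of its class in 1 library multiplied by 1000000, so they are relative to the class's total mRNA and not molecules per cell. A class was compared where it had at least 20 cells in both libraries, a gene was measured where it reached 10 CPM in 1 of the libraries and 5 UMIs over both, and it was called higher or lower where the levels differed by at least 1.5-fold after adding 5 CPM to each and the exact 95% interval of their ratio left out 1. The NM + saline and NM + losartan libraries are both set against the same uninjured library, so the comparisons with it are not independent of each other.

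In the epithelium the p53 targets were broadly higher after injury. Of 32 measured members 20 were higher and 3 lower in NM + saline cells than in uninjured cells, against 19.6% of all 8709 measured genes called higher and 16.9% called lower. In NM + losartan cells 19 of 32 were higher and 4 lower, against 15.3% and 19.4% of 8498 genes. The median log2 ratio was 1.00 over the members and 0.03 over all measured genes with saline, and 0.96 and -0.04 with losartan.

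**Figure D1:**
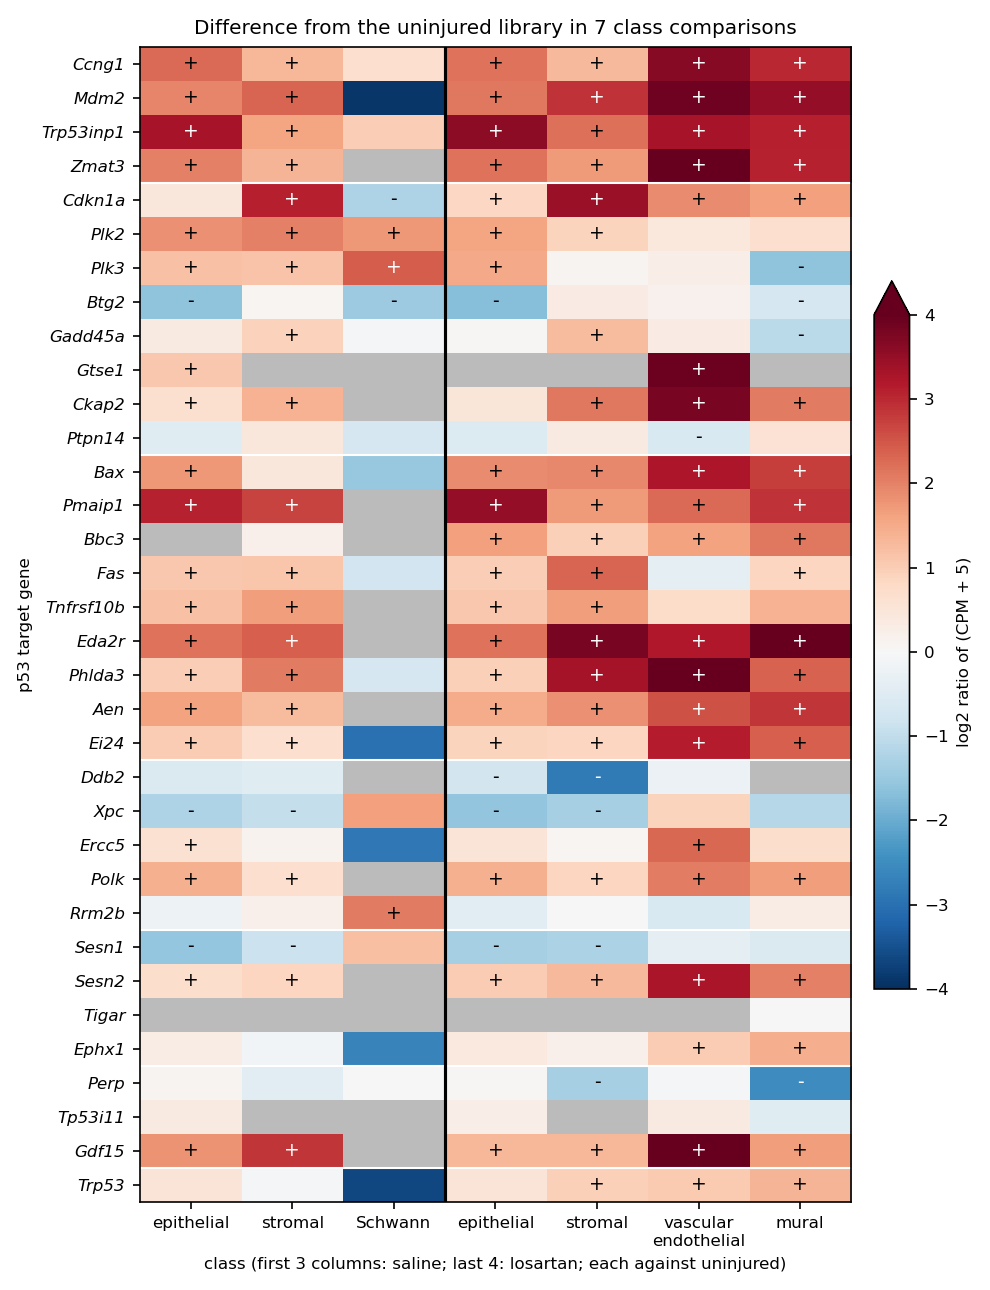
Log2 ratio of each of the 34 members (rows, ordered by role) between an injured and the uninjured library in each class compared (columns), on the scale of CPM with 5 added; red is higher and blue lower after injury, plus and minus signs mark calls, and members below the minimum level are grey. All 4 feedback genes at the top carry a plus sign in every column except the Schwann one, and Xpc and Sesn1 carry minus signs in the epithelial and stromal columns.

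All 4 feedback genes were higher in the epithelium in both comparisons. Ccng1 (chr11:40748552-40755311, GRCm38), which encodes cyclin G1, a partner of a phosphatase that acts on Mdm2, was at 35.7 CPM in uninjured, 189 in NM + saline and 178 in NM + losartan epithelium, 5.29-fold higher with saline (interval 5.10 to 5.49) and 4.98-fold with losartan (4.81 to 5.16). Mdm2 (chr10:117688875-117710758) was at 92.9, 373 and 414 CPM, 4.01-fold (3.92 to 4.11) and 4.46-fold (4.36 to 4.56) higher. Both injured libraries stood well apart from the uninjured one and close to each other. Trp53inp1 (chr4:11156431-11174379), whose nuclear protein aids p53 phosphorylation and autophagy, was at 7.15, 115 and 141 CPM, 16-fold (14.9 to 17.2) and 19.7-fold (18.5 to 21.1) higher, and had the largest log2 ratio of the feedback group. Zmat3, an RNA-binding zinc finger protein, was at 6.96, 43.7 and 49.1 CPM, 6.27-fold (5.79 to 6.80) and 7.05-fold (6.55 to 7.59) higher. These transcripts were spread over many cells: the fewest NM + saline cells that together held 50% of the UMIs were 73 of 1114 for Trp53inp1, 76 for Mdm2 and 116 for Ccng1.

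Apoptosis genes were likewise higher, 8 of 8 measured with saline and 9 of 9 with losartan. Pmaip1 (Noxa), a BH3-only protein that frees the pore formers of mitochondria, was at 1.42 CPM in uninjured, 49.5 in NM + saline and 68.4 in NM + losartan epithelium, 34.9-fold (30.1 to 40.7) and 48.2-fold (41.7 to 56.0) higher. Eda2r, a receptor of the tumour necrosis factor family, was nearly absent without injury, with 7 UMIs in 9263 cells (0.052 CPM), and stood at 17.8 and 17.9 CPM after it, a ratio of 342 (165 to 853) and 345 (167 to 860). Bax (chr7:45461697-45466898), which forms the mitochondrial pore, was at 53.6, 188 and 212 CPM, 3.51-fold (3.40 to 3.63) and 3.96-fold (3.84 to 4.07) higher. These 3 genes were low without injury and at like levels in the injured libraries. Phlda3, which restrains the survival kinase Akt, was already at 129 CPM without injury and at 260 and 253 CPM after it, 2.02-fold (1.97 to 2.07) and 1.96-fold (1.92 to 2.01) higher. Aen, a nuclease of apoptosis, was at 7.27, 32.2 and 29.5 CPM, 4.42-fold (4.07 to 4.81) and 4.06-fold (3.75 to 4.39) higher, and Ei24, a membrane protein of the endoplasmic reticulum, at 38.7, 83.9 and 76.5 CPM, 2.17-fold (2.07 to 2.26) and 1.98-fold (1.90 to 2.06) higher. The death receptors Fas and Tnfrsf10b were higher by 3.45-fold and 3.11-fold with saline and by 3.14-fold and 2.94-fold with losartan. Bbc3 (Puma), another BH3-only protein, was at 2.77, 9.36 and 19.5 CPM, below the minimum level with saline and 7.02-fold (6.25 to 7.91) higher with losartan.

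The 8 members grouped as cell cycle arrest genes were divided. With saline 4 were higher, Plk2, Plk3, Gtse1 and Ckap2, and 1, Btg2, was lower. Because Gtse1 and Ckap2 belong to dividing cells, this is not a count of arrest alone. Cdkn1a (chr17:29090976-29100727), the p21 inhibitor of cyclin-dependent kinases, stood at 534 CPM in uninjured, 737 in NM + saline and 948 in NM + losartan epithelium, a ratio of 1.38 (1.36 to 1.40) that was not called and one of 1.77 (1.76 to 1.79) that was. Its uninjured level was high before any NM, unlike that of the feedback genes. Plk2 (chr13:110395046-110400844), a polo-like kinase of the stress response, was at 61.5, 229 and 195 CPM, 3.72-fold (3.61 to 3.84) and 3.17-fold (3.08 to 3.26) higher. Its relative Plk3 was at 31.1, 76.6 and 97.4 CPM, 2.47-fold (2.35 to 2.58) and 3.13-fold (3.01 to 3.26) higher. Btg2, an antiproliferative protein that is also induced early by growth signals, went the other way at 692, 223 and 211 CPM, 3.10-fold (3.03 to 3.17) lower with saline and 3.28-fold (3.22 to 3.34) lower with losartan. Gtse1 and Ckap2, microtubule-binding proteins of dividing cells, were at 2.64, 11.1 and 8.6 CPM and at 11.8, 21 and 18.3 CPM, and 48 and 40 cells held 50% of their NM + saline UMIs. Gadd45a and Ptpn14 were not called in the epithelium.

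The repair genes did not move together. Polk, a polymerase that copies past bulky adducts, was at 18.2, 56.9 and 57.5 CPM, 3.13-fold (2.96 to 3.32) and 3.16-fold (3.0 to 3.33) higher. Xpc, which recognises damage for nucleotide excision repair, was lower at 45.1, 16.1 and 12.0 CPM, by 2.81-fold (2.59 to 3.05) and 3.77-fold (3.49 to 4.08). Its partner in recognition, Ddb2, was at 13.2, 7.26 and 5.84 CPM, lower by 1.82-fold (1.60 to 2.06), not called, and by 2.26-fold (2.01 to 2.54), called. Ercc5, the endonuclease XPG, was at 32.1, 51.4 and 48.6 CPM and called higher only with saline. Rrm2b, a subunit of ribonucleotide reductase, was at 22.4, 18.6 and 15.6 CPM and not called.

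The sestrins, which quiet the growth kinase mTORC1 under stress, split. Sesn1 was at 72.2, 21.5 and 25.6 CPM, lower by 3.35-fold (3.13 to 3.60) and 2.82-fold (2.67 to 2.98), while Sesn2 was at 18.4, 32.9 and 42.5 CPM, higher by 1.79-fold (1.67 to 1.92) and 2.31-fold (2.19 to 2.44). Gdf15, a secreted stress cytokine, was at 1.05, 16.1 and 10.1 CPM, higher by 15.4-fold (12.8 to 18.6) and 9.69-fold (8.05 to 11.7), but 10 of 1114 NM + saline cells held 50% of its UMIs. Perp, a desmosome protein that epithelia express without damage, was at 2106, 2276 and 2157 CPM, and neither Perp, Tp53i11 nor Ephx1, an epoxide hydrolase, was called. Tigar, a regulator of glycolysis, stayed below the minimum level. Trp53 mRNA was at 87.1, 128 and 126 CPM, a ratio of 1.47 (1.42 to 1.52) and 1.45 (1.41 to 1.49), and was not called.

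Epithelial clusters gave the same comparison at a finer grain. With clusters of at least 50 cells in a library, the uninjured epithelium gave 9 levels and the injured epithelium 6, from 3 clusters that each held cells of both injured libraries. The shallow uninjured clusters 8 and 20 were not among the 9, and the result with them was not tested. Injured cluster 14, at a median of 1473 UMIs a cell, was kept, since genes of the epithelial lists were among its leading genes. In 10 of 33 measured members every injured level lay above every uninjured one, against 5.3% of 10531 genes: Ccng1, Mdm2, Trp53inp1, Zmat3, Plk2, Plk3, Bax, Pmaip1, Eda2r and Gdf15. No member lay wholly below, against 3.97% of genes. Uninjured clusters ranged from 24.1 to 45 CPM for Ccng1 and injured ones from 110 to 289. For Trp53inp1 the ranges were 3.26 to 12.6 and 43.6 to 223 CPM, and for Pmaip1 0.11 to 4.07 and 36.5 to 92.5 CPM. These ranges were far apart, whereas those of Plk3, 6.74 to 52.6 and 52.7 to 118 CPM, almost met.

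**Figure D2:**
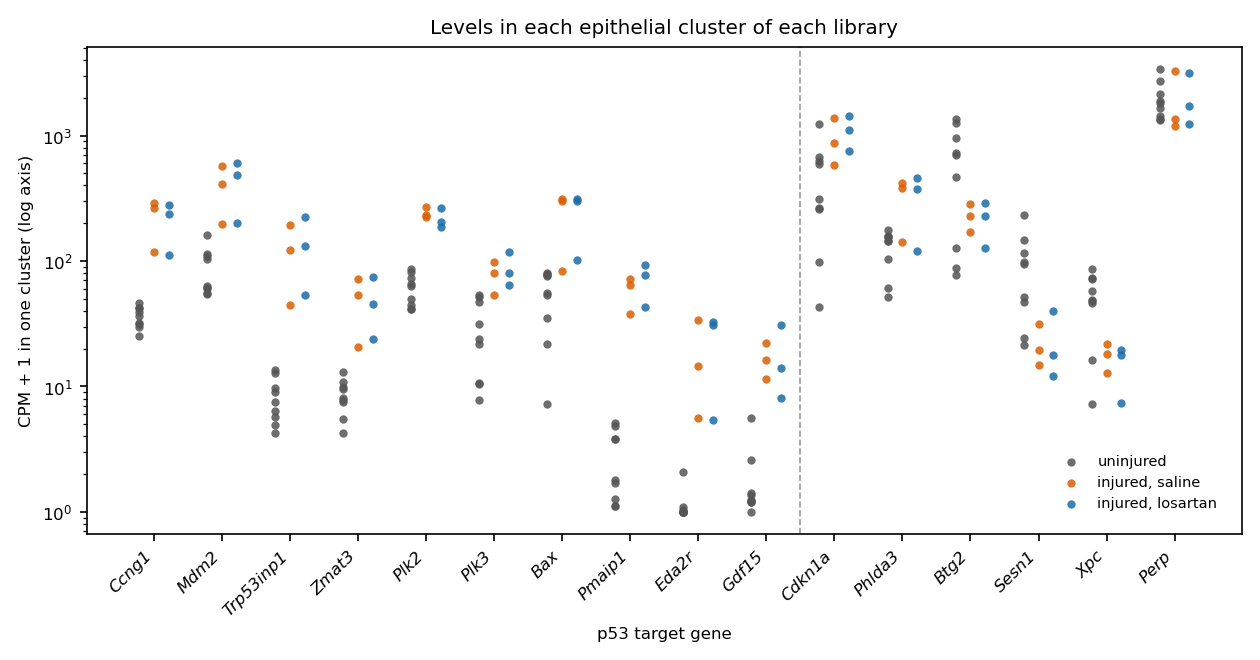
Level (CPM + 1, log axis) of 16 members in each epithelial cluster, with 1 point for each cluster with at least 50 cells in a library and colour for the library. All points of the injured libraries lie above all uninjured points for the 10 members left of the dashed line, and the ranges overlap for the 6 members right of it.

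Cdkn1a and Btg2 spanned wide ranges already without injury, 42.3 to 1242 CPM and 76.4 to 1349 CPM, which took in most or all of the injured levels of 577 to 1434 and 125 to 290 CPM. The summed level of 14 immediate early genes (Fos, Jun, Atf3 and others, which tissue handling also induces) differed among the same clusters. In clusters 1, 4 and 9, of basal-like and wing-like cells, it was 3176, 2876 and 3086 CPM, with Btg2 at 86.8, 76.4 and 126 CPM and Cdkn1a at 42.3, 262 and 96.7 CPM. In clusters 2 and 19 it was 17962 and 17978 CPM, with Btg2 at 1259 and 1349 CPM and Cdkn1a at 598 and 630 CPM. Cdkn1a did not keep to that order, since its highest level, 1242 CPM, was in cluster 11, where the sum was 15267 CPM. Over the whole epithelium the immediate early sum was 10916 CPM uninjured, 5442 with saline and 5428 with losartan, and its part in the levels of Cdkn1a and Btg2 was not tested. Without cluster 2, the uninjured cluster led by Atf3 and Fos, 19 members were higher and 4 lower with saline (18.9% and 17.8% of all genes), and 20 higher and 4 lower with losartan (15.3% and 21.2%).

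The layers of the epithelium differ in number between libraries, so cells given the same layer name were also compared with each other. Among basal-like cells 25 members were higher and 3 lower with saline (26.6% and 15.5% of all genes) and 23 higher and 4 lower with losartan (20.5% and 17.7%). There Cdkn1a stood at 358 CPM uninjured, 908 with saline and 1119 with losartan, 2.53-fold (2.48 to 2.59) and 3.12-fold (3.07 to 3.18) higher. Among superficial-like cells 15 were higher and 1 lower with saline (29.8% and 13.9%), and 15 higher and 3 lower with losartan (26.3% and 15.9%). Cdkn1a was at 675, 577 and 758 CPM in these cells and was not called. The injured superficial-like cells were cluster 5 alone, led by Sprr2f, Sprr1a and Krt19. Its leading genes Krt19 and Krt4 are on the conjunctival list, which was not set against the epithelial one in naming. Whether cluster 5 matches the uninjured superficial-like cluster 12, led by Psca and Asprv1, was not tested. In both layers Ccng1, Mdm2, Trp53inp1, Zmat3, Plk2, Plk3, Bax, Pmaip1, Phlda3, Polk, Sesn2, Ephx1 and Trp53 were higher in both injured libraries. Trp53 mRNA, not called over the whole epithelium, was at 113, 224 and 200 CPM in basal-like and 15.8, 37.0 and 43.7 CPM in superficial-like cells.

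Shares of cells with a UMI were read after thinning each cell to 1500 UMIs, which left out 429 uninjured, 238 NM + saline and 178 NM + losartan epithelial cells. Mdm2 was detected in 11.6% of uninjured epithelial cells, 30.4% with saline and 37.4% with losartan, and Cdkn1a in 33.0%, 56.2% and 64.7%. Pmaip1 was detected in 0.294%, 6.96% and 9.65% of cells. Without thinning the shares were 51.2%, 61.3% and 79.2% for Mdm2, and 1.73%, 44.9% and 58.6% for Pmaip1, at median depths of 13189, 11382.5 and 29799 UMIs a cell. Eda2r was detected in 0.0113%, 2.85% and 3.18% of epithelial cells, beside 0.0341% and 0.0753% of the neutrophils of the injured libraries at the same thinned depth (unthinned, 22.1% and 25.4% beside 0.133% and 0.362%, with neutrophil medians of 3962 and 2614 UMIs). The median epithelial cell held UMIs of 3 members uninjured and 4 in either injured library at the thinned depth.

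Neutrophils, of which the uninjured library held 1, carried some members themselves: Cdkn1a at 993 CPM with saline and 1251 with losartan, Mdm2 at 385 and 286, Btg2 at 1039 and 1598, Fas at 365 and 319, and Gadd45a at 590 and 225. Eda2r (0.33 and 1.37 CPM), Zmat3 (1.59 and 2.73) and Phlda3 (3.01 and 8.75) were near 0 there. The 12 neutrophil markers summed to 5.47 CPM in uninjured, 155 in NM + saline and 65.8 in NM + losartan epithelium, against 43746 and 46810 CPM in neutrophils, and the share of free neutrophil RNA in each member was not tested.

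In the stroma, home of keratocytes and the fibroblasts that follow injury, 19 of 31 measured members were higher and 2 lower with saline, against 13.1% and 36% of 9694 genes. With losartan 21 of 31 were higher and 4 lower, against 16.5% and 22.1% of 9383 genes. The median log2 ratio of the members was 0.92 beside -0.39 for all genes with saline, and 1.28 beside -0.11 with losartan. At the thinned depth the median stromal cell held UMIs of 2 members uninjured, 2 with saline and 3 with losartan. Cdkn1a stood at 129 CPM in uninjured, 1157 in NM + saline and 1461 in NM + losartan stroma, 8.98-fold (8.18 to 9.87) and 11.3-fold (10.4 to 12.4) higher. Its uninjured stromal level was low and both injured levels lay far above it. Without 1 cluster, which held 15 NM + saline cells, the saline count was 11 higher and 5 lower. Mdm2 was at 52.3, 280 and 421 CPM, 5.36-fold (4.59 to 6.28) and 8.05-fold (7.02 to 9.28) higher, and Ccng1 at 62.5, 166 and 160 CPM, 2.66-fold (2.27 to 3.13) and 2.56-fold (2.24 to 2.93) higher. The saline levels rested on few cells. The fewest NM + saline stromal cells that together held 50% of the UMIs were 5 of 700 for Mdm2, 15 for Ccng1 and 19 for Cdkn1a. Without thinning, 18% of these cells had any Mdm2 UMI.

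Of 9 stromal apoptosis genes 7 were higher with saline and 9 with losartan. Without the cluster of the 15 NM + saline cells named above, the saline calls were Pmaip1, Tnfrsf10b and Eda2r higher and Bax and Ei24 lower. Eda2r was at 2.43, 34.3 and 97.3 CPM, 14.1-fold (7.28 to 30.5) and 40.0-fold (21.7 to 83.7) higher, and Phlda3 at 19.0, 95.2 and 234 CPM, 5.02-fold (3.86 to 6.58) and 12.3-fold (9.86 to 15.7) higher. Bax was at 99.7, 137 and 396 CPM, a ratio of 1.37 (1.18 to 1.59) that was not called and one of 3.97 (3.58 to 4.4) that was. For all 3 genes the losartan level was the highest. Without that cluster the saline levels were 10.3 CPM for Eda2r, 18 for Phlda3 and 20.1 for Bax, so that Phlda3 stood at 0.947 (0.617 to 1.43) and Bax at 0.201 (0.141 to 0.279) times the uninjured level. Gadd45a, a small protein of growth arrest and repair, was at 18.7, 39.8 and 52.6 CPM, 2.12-fold (1.55 to 2.91) and 2.81-fold (2.21 to 3.61) higher. Gdf15 was at 0.97, 38.1 and 10.1 CPM, but 1 NM + saline cell held 50% of its UMIs. Xpc (47.9, 22.4 and 16 CPM) and Sesn1 (42.6, 21.2 and 14.6 CPM) were lower in both comparisons, as they were in the epithelium. Ddb2 was at 155, 110 and 17.7 CPM, not called with saline and 8.76-fold (7.45 to 10.3) lower with losartan. Perp was at 64.9, 45.7 and 22.7 CPM, 2.86-fold (2.4 to 3.41) lower with losartan, and the summed epithelial markers in the stromal cells were at 1245, 405 and 287 CPM, whose part in the Perp level was not tested. Neutrophil markers summed to 28.0, 263 and 97.4 CPM in the stromal cells, and their part was not tested either.

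The stromal cells of the libraries fell into different clusters. Cluster 18 held 83% of the uninjured stromal UMIs and no injured cell. Cluster 10, shared by all libraries, held 41 uninjured, 685 NM + saline and 311 NM + losartan cells, and cluster 17, led by the matrix metalloproteinase gene Mmp3, held 15 NM + saline cells with 17.7% of that library's stromal UMIs and 365 NM + losartan cells with 90.3%. In the 15 NM + saline cells of cluster 17, Cdkn1a was at 2813 CPM, Mdm2 at 1156, Bax at 681 and Phlda3 at 454. Without cluster 17, 11 members were higher and 5 lower with saline (12.7% and 52.1% of all genes), the 5 being Bax, Ei24, Xpc, Sesn1 and Trp53, and 21 were higher and 2 lower with losartan (13.2% and 38.2%). Within cluster 10 alone, 2 members were higher with saline, Cdkn1a and Plk2, and 4 lower (3.47% and 20.5%), and 4 were higher with losartan, Cdkn1a, Ccng1, Plk2 and Pmaip1, and 4 lower (4.25% and 24.3%). In cluster 10 Cdkn1a was at 104 CPM uninjured, 801 with saline and 1688 with losartan, while Mdm2 was at 119, 91.5 and 187 CPM and Bax at 29.7, 20.1 and 45 CPM. The uninjured side of that comparison had 41 cells with 67433 UMIs in all, so small differences were not detectable. Cdkn1a and Plk2 were thus higher with saline in all stromal cells, without cluster 17, and within cluster 10. The last 2 settings hold the same 685 NM + saline cells and differ only in the uninjured cells, 416 and 41.

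**Figure D3:**
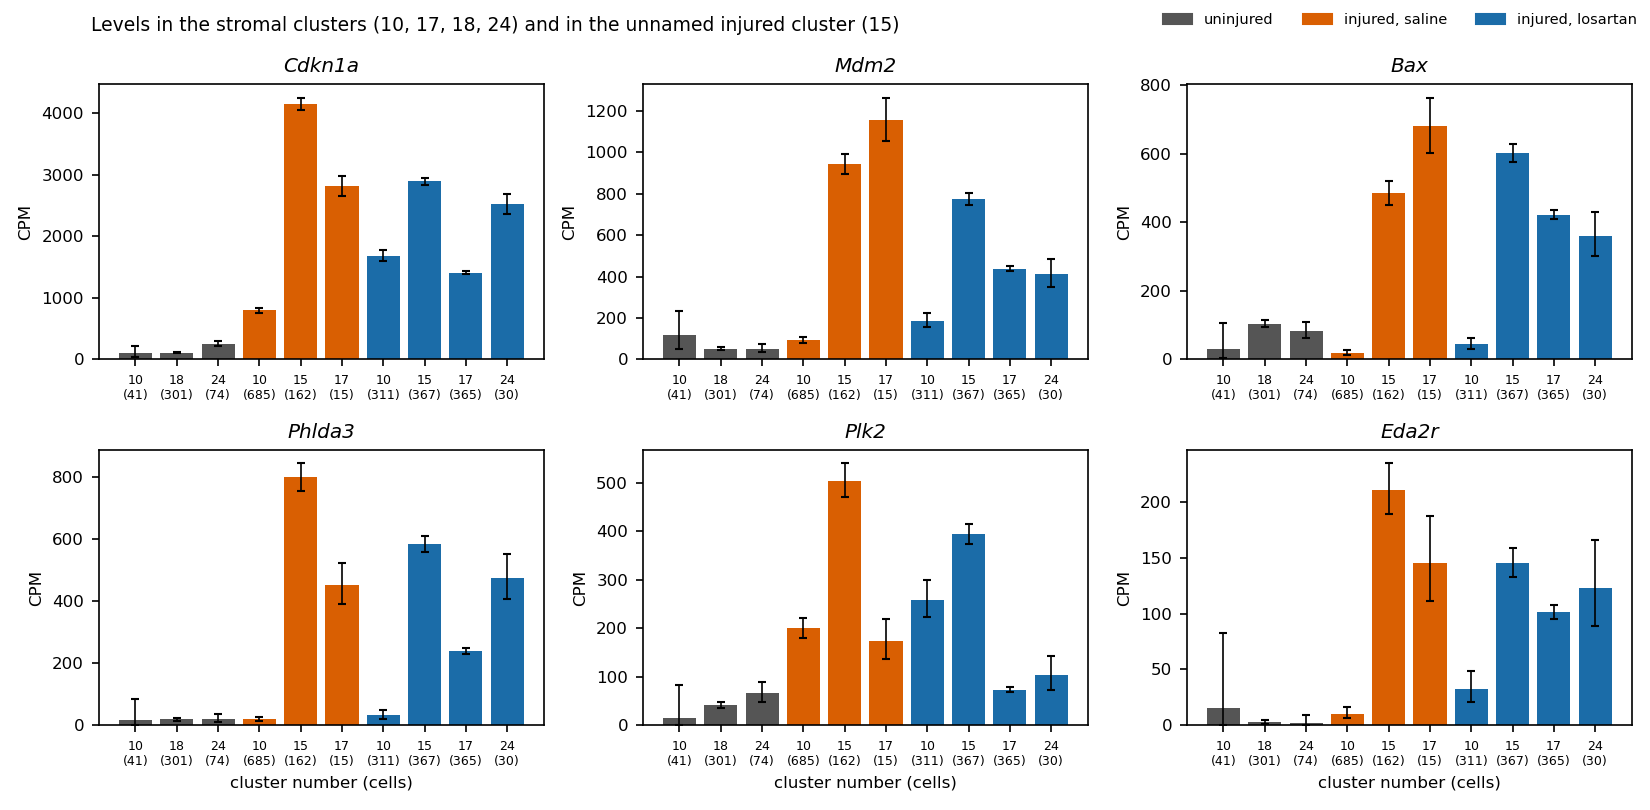
Level in CPM of 6 members in the stromal clusters 10, 17, 18 and 24 and in the unnamed cluster 15, by library, with exact 95% Poisson intervals that cover counting error only and the number of cells in brackets. Of the stromal clusters with saline, cluster 17 (15 cells) is above cluster 10 (685 cells) in every panel but that of Plk2.

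Vessel cells could be compared with losartan alone, because saline vessel cells were too few. In vascular endothelium 20 of 33 measured members were higher and 1 lower, against 17.3% and 12.1% of 9476 genes, and in mural cells 19 of 32 were higher and 4 lower, against 11.4% and 10.5% of 9596 genes. The median log2 ratio was 1.89 over the members and 0.22 over all genes in endothelium, and 1.54 and 0.06 in mural cells. Mdm2 was at 51.7 CPM in uninjured and 832 in NM + losartan endothelium, 16.1-fold (10.0 to 27.5) higher, and at 38.1 and 485 CPM in mural cells, 12.7-fold (7.54 to 23.2) higher. Bax was at 112 and 1087 CPM in endothelium, 9.70-fold (6.97 to 13.9) higher, and at 78.7 and 565 CPM in mural cells, 7.18-fold (4.92 to 10.8) higher. These levels came from few cells, and 6 of the 28 injured endothelial cells held 50% of the Mdm2 UMIs.

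Cdkn1a was at 601 and 2236 CPM in endothelium, 3.72-fold (3.19 to 4.36) higher, and at 1135 and 3520 CPM in mural cells, 3.10-fold (2.79 to 3.46) higher. Phlda3 was at 25.9 and 495 CPM in endothelium, 19.2-fold (9.86 to 42.6) higher, and at 81.2 and 438 CPM in mural cells. Several members had 0 UMIs without injury: Zmat3 in endothelium, at 167 CPM after injury and at least 19.4-fold higher, and Eda2r in mural cells, at 275 CPM and at least 36.1-fold higher, each against 3 counts in the uninjured class. Gtse1 and Ckap2 also had 0 UMIs in uninjured endothelium and stood at 70.8 and 65.1 CPM after injury, at least 8.21-fold and 7.55-fold higher, and 4 cells held 50% of the UMIs of each. Gdf15 was at 2.87 and 396 CPM in endothelium, where 1 cell held 50% of its UMIs, and at 93.9 and 312 CPM in mural cells. Trp53 mRNA was at 112 and 235 CPM in endothelium and 48.2 and 131 CPM in mural cells, 2.10-fold (1.42 to 3.15) and 2.72-fold (1.58 to 4.87) higher.

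The remaining members that were higher in all 4 classes with losartan had these levels outside the epithelium. Trp53inp1 was at 17.3, 62.2 and 98.6 CPM in uninjured, NM + saline and NM + losartan stroma, 5.71-fold (4.49 to 7.36) higher with losartan, at 11.5 CPM uninjured and 156 with losartan in endothelium, 13.5-fold (5.0 to 51.5), and at 33.0 and 322 CPM in mural cells, 9.76-fold (5.51 to 18.8). Zmat3 was at 13.4, 42.3 and 55.0 CPM in stroma, 4.11-fold (3.12 to 5.52) higher with losartan, and at 5.08 and 79.3 CPM in mural cells, 15.6-fold (3.98 to 134). In stroma the injured libraries stood above the uninjured one for both genes, and in the vessels the intervals are wide because the uninjured levels rest on few UMIs. Pmaip1 was at 1.95, 40.6 and 17.8 CPM in stroma, 9.14-fold (4.55 to 21.5) higher with losartan, at 11.5 and 73.6 CPM in endothelium, 6.40-fold (2.22 to 25.2), and at 0 and 32.2 CPM in mural cells, at least 4.23-fold. Bbc3 was at 9.24, 11.4 and 22.5 CPM in stroma, 2.44-fold (1.73 to 3.53) higher with losartan, at 14.4 and 53.8 CPM in endothelium, 3.74-fold (1.35 to 12.8), and at 2.54 and 27.2 CPM in mural cells, 10.7-fold (1.56 to 462). In the 685 NM + saline stromal cells of cluster 10, Trp53inp1 was at 32.9 CPM, Zmat3 at 27.3, Pmaip1 at 36.0 and Bbc3 at 5.66.

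Aen was at 10.2, 31.3 and 49.4 CPM in stroma, 4.84-fold (3.53 to 6.79) higher with losartan, at 11.5 and 90.6 CPM in endothelium, 7.88-fold (2.79 to 30.7), and at 10.2 and 104 CPM in mural cells, 10.2-fold (3.72 to 39.3). Ei24 was at 31.6, 52.9 and 61.4 CPM in stroma, 1.94-fold (1.61 to 2.36) higher with losartan, at 25.9 and 269 CPM in endothelium, 10.4-fold (5.25 to 23.4), and at 27.9 and 168 CPM in mural cells, 6.03-fold (3.17 to 12.6). Both genes had their smallest losartan ratio in the epithelium or the stroma and larger ones in the vessel classes. Polk was at 13.9, 25 and 29.5 CPM in stroma, 2.13-fold (1.6 to 2.88) higher with losartan, at 28.7 and 133 CPM in endothelium, 4.63-fold (2.31 to 10.3), and at 15.2 and 59.4 CPM in mural cells, 3.90-fold (1.55 to 11.7). Sesn2 was at 9.73, 22 and 31.1 CPM in stroma, 3.20-fold (2.30 to 4.55) higher with losartan, at 2.87 and 70.8 CPM in endothelium, from 1 uninjured UMI, and at 12.7 and 66.9 CPM in mural cells, 5.27-fold (2.0 to 17.5). In the 685 NM + saline stromal cells of cluster 10, Aen was at 17.5 CPM, Ei24 at 17.5, Polk at 10.8 and Sesn2 at 9.77. Those levels of Ei24 and Polk lay below the uninjured stromal ones. Eda2r was at 14.4 and 173 CPM in endothelium, 12-fold (4.88 to 38.3) higher. Each gene of this paragraph was picked as higher in every class with losartan, so its losartan level had to exceed the uninjured one.

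Lower members in mural cells were Plk3 (78.7 and 22.3 CPM, 3.53-fold, 1.64 to 8.43), Gadd45a (58.4 and 24.8 CPM), Btg2 (2227 and 1387 CPM) and Perp (122 and 17.3 CPM). The summed epithelial markers in mural cells were at 2590 CPM without injury and 342 with losartan, and their part in the Perp level was not tested. The immediate early sum in mural cells was 28849 CPM uninjured and 12490 with losartan, and its part in the lower levels was not tested. In endothelium Ptpn14, a phosphatase that restrains the transcriptional coactivator Yap, was lower at 359 and 235 CPM, 1.53-fold (1.15 to 2.04). The 15 NM + saline endothelial cells, where 1 UMI is worth 35.0 CPM, were too few for that comparison.

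Schwann cells, compared with saline alone, had 3 members higher and 2 lower of 20 measured, against 4.34% and 4.77% of 7928 genes. The median log2 ratio was -0.67 over the members and -0.68 over all genes. Plk2 was at 154 CPM in uninjured and 530 in NM + saline Schwann cells, 3.43-fold (1.85 to 6.12) higher, from 18 injured UMIs. Plk3 was at 23.2 and 147 CPM and Rrm2b at 30.9 and 147 CPM, 6.35-fold (1.53 to 25) and 4.76-fold (1.23 to 16.5) higher, each from 5 injured UMIs. Without the single cell that held the most UMIs, only Plk2 was higher. Cdkn1a was lower at 973 and 412 CPM, 2.36-fold (1.38 to 4.38), and Btg2 at 1054 and 383 CPM, 2.75-fold (1.58 to 5.24). Mdm2, at 69.5 CPM without injury, had 0 UMIs in the 28 NM + saline cells, whose total allows up to 88.3 CPM at 3 counts. The injured Schwann cells were shallow, with a median of 1038 UMIs beside 2490, and their neutrophil markers summed to 795 CPM beside 182. Their immediate early sum was 11071 CPM beside 23059 uninjured. The part of both in these levels was not tested.

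Across classes, 2 members were higher in every class compared with saline (epithelium, stroma, Schwann cells), Plk2 and Plk3, against 0.384% of 11464 genes. With losartan (epithelium, stroma, endothelium, mural cells) 15 members were higher in every class, against 1.05% of 12028 genes: the feedback genes Ccng1, Mdm2, Trp53inp1 and Zmat3, the arrest gene Cdkn1a, the apoptosis genes Bax, Pmaip1, Bbc3, Eda2r, Phlda3, Aen and Ei24, and Polk, Sesn2 and Gdf15. The classes differ between the comparisons, and the saline set rests on 28 shallow Schwann cells. With cells thinned to 1500 UMIs, 8 members were higher in every class with losartan. Without the single cell with the most UMIs of the gene in each library, 13 were, and Bbc3 and Gdf15 were not among them. Higher in at least 2 classes were 17 members with saline and 21 with losartan. The share of all genes is not given for these counts, nor for those after thinning or without single cells.

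With saline 6 members were higher in exactly 1 class, against 21.7% of all genes: Cdkn1a and Gadd45a in stroma, Gtse1, Bax and Ercc5 in epithelium, and Rrm2b in Schwann cells. With losartan 4 were higher in exactly 1 class, against 20.2% of all genes: Plk3 in epithelium, Gadd45a in stroma, and Gtse1 and Ercc5 in endothelium. A call in 1 class does not show that the classes differ, since the difference between them was not tested. Gtse1 in stroma, for instance, was at 7.62 and 7.20 CPM in the injured libraries beside 0.243 CPM, below the minimum level. Ercc5 in endothelium was at 8.62 and 62.3 CPM, 7.22-fold (2.17 to 37.7) higher from 3 uninjured UMIs. No class had Btg2, Ptpn14, Ddb2, Xpc, Sesn1, Tigar, Perp or Tp53i11 higher in either comparison.

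Losartan and saline differed little in the epithelium. Of 32 measured members 1 was higher with losartan and 0 lower, against 1.94% and 5.7% of 8077 genes, and the member was Bbc3, at 9.36 CPM with saline and 19.5 with losartan, 2.08-fold (1.85 to 2.34). It was also the single member called within basal-like cells (2.41% of genes higher and 5.31% lower) and within superficial-like cells (2.7% and 7.16%). At a required fold of 2 on the same scale it was not called. The other apoptosis genes lay closer together: Pmaip1 at 1.38 (1.31 to 1.46), Bax at 1.13 (1.09 to 1.16) and Eda2r at 1.01 (0.917 to 1.11) times the saline level.

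**Figure D4:**
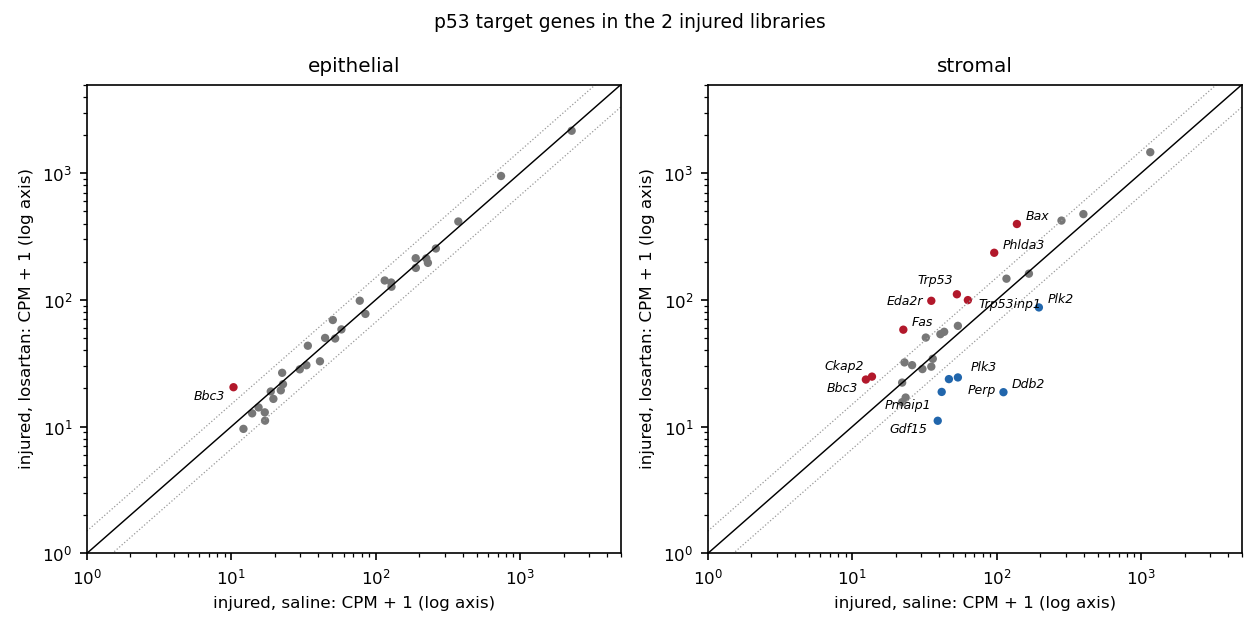
Level of each measured member (CPM + 1, log axes) with saline (horizontal) and losartan (vertical) in the epithelium and the stroma; the full line marks equal levels, the dotted lines 1.5-fold, and coloured points are calls. Bbc3 is the single coloured point in the epithelium, and in the stroma Bax, Phlda3 and Eda2r lie above it and Ddb2, Gdf15 and Plk2 below it.

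**Figure D5:**
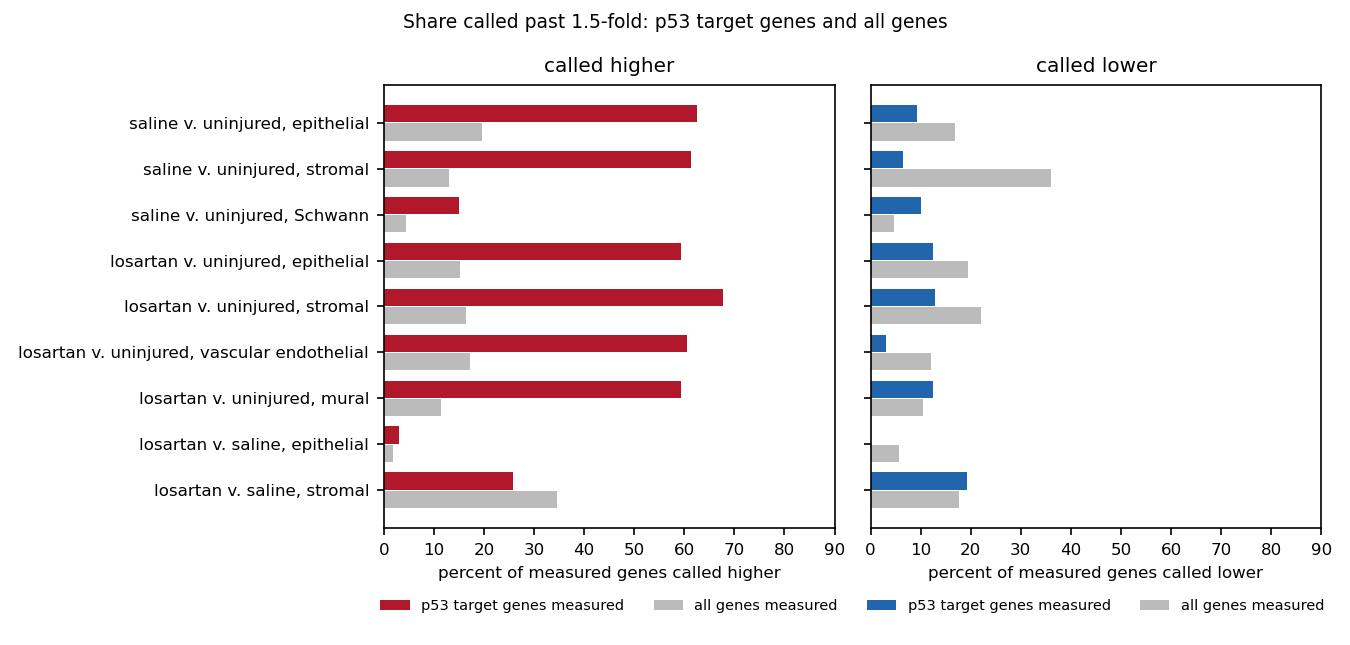
Percent of measured p53 targets (coloured bars) and of all measured genes (grey bars) called higher (left) or lower (right) by at least 1.5-fold in each comparison and class. The members' share called higher exceeds that of all genes in all 7 comparisons with the uninjured library, and lies below it for losartan against saline in the stroma.

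In the stroma 8 of 31 members were higher and 6 lower with losartan than with saline, against 34.6% and 17.6% of 9476 genes, so the higher share is below the background. Bax was 2.89-fold (2.58 to 3.24), Eda2r 2.84-fold (2.26 to 3.60) and Phlda3 2.46-fold (2.15 to 2.83) higher, and Ddb2 6.24-fold (5.16 to 7.56) and Plk2 2.26-fold (2.02 to 2.53) lower. The cluster led by Mmp3 held 51.7% of the losartan and 2.14% of the saline stromal cells. Without it 23 members were higher and 1, Ddb2, lower (25.4% and 12% of genes), and within cluster 10 12 were higher and 0 lower (9.12% and 16.5%), Cdkn1a at 2.11 times the saline level among them.

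One cluster of the injured libraries could not be named and carried these genes at high levels. It held 162 NM + saline and 367 NM + losartan cells beside 3 uninjured ones, and was led by Ddit4l, Uchl1 and Procr, with Trp53inp1 and Eda2r among its leading genes although neither entered the grouping. The highest marker score of the cluster was that of corneal endothelium, 0.211 with 4 markers detected. Stroma came next at 0.150, and the gap was too small for a name. Its 10 stromal markers summed to 5023 and 4340 CPM, of which Dcn made 4192 and 3072, against 55844 and 39016 CPM in stromal cells, and its 11 epithelial markers to 252 and 464 CPM. Cdkn1a stood at 4154 CPM with saline and 2895 with losartan, Phlda3 at 801 and 586, and Ccng1 at 679 and 602. With saline 21 of 34 members were higher there than in every other class compared, against 29.3% of genes, and with losartan 10 of 34, against 23.7%, a share near the background. Vessel cells were among the classes compared with losartan and not with saline, and Cdkn1a, Mdm2, Bax, Zmat3 and Eda2r were not highest in the cluster with losartan. The median cell of the cluster held UMIs of 7 members at the thinned depth in both libraries, beside 3 in neutrophils and 7.5 and 7 in NM + losartan endothelial and mural cells. Uninjured medians were 2.5 and 3 in endothelium and mural cells. At a lower cluster resolution of 0.4, all 532 cells of the cluster joined 1 cluster with 125 mural and 84 vascular endothelial cells, which its markers named mural.

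Further genes of the pathway were taken from lists that share no gene with the members. Of 21 further p53 targets 15 were measured in the epithelium with saline, and 10 were higher and 1, Steap3, lower, beside 19.6% and 16.9% of all genes. The largest were Igfbp3, a binding protein of insulin-like growth factors, at 0.416 CPM uninjured and 608 with saline, and Sulf2, a sulfatase of heparan sulfate, at 1.02 and 63.0 CPM. With losartan the further targets were higher in 8 of 13 in epithelium, 11 of 17 in stroma, 10 of 17 in endothelium and 9 of 17 in mural cells, beside 15.3%, 16.5%, 17.3% and 11.4% of all genes. Of 17 genes that act on p53 or its protein 14 were measured in the epithelium with saline, 0 higher and 4 lower: Prkdc (38.1 and 16 CPM), a kinase of double-strand break repair, Usp7, Sirt1 and Trp53bp1. All genes gave 19.6% higher and 16.9% lower. In endothelium with losartan 2 of 14 were higher, Mdm4, the partner of Mdm2, and the checkpoint kinase Chek2, and 1, Trp63, lower, beside 17.3% and 12.1% of all genes. Trp63 is also one of the epithelial markers, and the part of epithelial RNA in its endothelial level was not tested.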

How the data were processed

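Cells of the mouse cornea and limbus were counted in 3 libraries, 1 for each group. The deposited values are counts of UMIs per gene and cell barcode in filtered matrices, which Cell Ranger 8.0.0 wrote, per the file headers, on GRCm38 per the submitters' processing notes. The matrices held 13270, 6814 and 5887 barcodes and 177003042, 83155441 and 92753670 UMIs (uninjured, NM + saline, NM + losartan). The matrices have no unnamed rows, and 0 columns of per-sample values were left unused.

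Cells with under 500 genes or over 20% mitochondrial UMIs were removed (703, 680 and 725). Doublets were scored against 2 simulated doublets per cell, and the top 0.8% per 1000 barcodes was removed (1334, 334 and 243). The values were scaled to 10000 per cell and log-transformed, and 2000 variable genes without the members and the other p53 lists gave 30 principal components, a graph of 20 neighbours and Leiden clusters at resolution 0.8. Clusters were named from fixed marker lists. The score that turned markers into names, and the rule for epithelial layers, were chosen once the clusters were known. UMIs were summed per class and library, and ratios have exact conditional binomial 95% intervals, which treat UMIs as independent molecules. Gene coordinates come from GENCODE's annotation of GRCm38. A class at 0 UMIs was set to 3 counts over the class for a lower bound.

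The members and lists were chosen with earlier results of these data known. The text names all members, with levels and ratios for those higher in every compared class, in exactly 1, or lower in epithelium or stroma, and for the member of each role with the largest epithelial ratio, and the others by level, count or range. Of other lists the rule names at most 2 genes with the largest epithelial ratio, and genes named beyond these were chosen after their values were seen. Lists of 21 further targets, 17 regulators of p53, 12 cell cycle genes lowered through p21 and 14 immediate early genes were counted. Of the p21 list 7 were measured in the epithelium with saline, 1 higher and 2 lower, and of the immediate early list 12 of 14 were lower.

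On simulated counts the calls recovered 2-fold and 4-fold changes in 96% and 98% of genes in the epithelium, 91% and 95% in the stroma, 48% and 88% in mural cells, 48% and 92% in endothelium, and 21% and 58% in Schwann cells. Of unchanged genes 0%, 0.742%, 2.65%, 3.02% and 1.59% were called in these classes, in that order. With 1 library a group, differences between mice could not be estimated, so these shares say nothing about them. Python 3.11.15, numpy 2.4.6, scipy 1.17.1, pandas 2.3.3, scikit-learn 1.9.0, igraph 0.11.9, leidenalg 0.10.2 and matplotlib 3.10.9 were used. Alternatives changed the scaling, the weight and depth of cells, the minimum level, the added constant, the fold, single top cells, the cell filter, the genes clustered on and the resolution.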

Additional observations from a re-analysis of the deposited data

Results flagged for a closer look

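For 3 members the ratio to the uninjured library went one way in one class and the other way in another. With 1 library a group, the difference between the classes was not tested. Cdkn1a with saline was at 8.98 times the uninjured level in stroma and at 0.423 times in Schwann cells, where it rested on 14 injured UMIs. With losartan, Plk3 was at 3.13 times the uninjured level in epithelium and at 0.283 times in mural cells, from 9 injured mural UMIs. Gadd45a with losartan was at 2.81 times the uninjured level in stroma and at 0.424 times in mural cells, from 10 injured mural UMIs.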

How the results depend on the processing

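Of the 197 counts that answer a comparison under another setting, 164 stayed within 1.5 times their value in the report and 33 did not. For the changed scaling, cell weight, depth, fold, single cells, cell filter and resolution, the share of all genes called is not given. Those counts show how the calls move, not how the members stand against all genes. With median-of-ratios scaling the members lower in stroma with saline were 0, those higher in stroma with losartan against saline 5, and those higher in exactly 1 class with saline 3; this scaling moved the median log2 of all genes by 0.41 in stroma with saline, -0.34 in stroma with losartan against saline, and -0.18 and -0.11 in endothelium and mural cells. With each cell weighted alike, 6 were lower in epithelium with saline, 12 higher in stroma with saline, 14 higher in stroma with losartan against saline, and 11 higher in exactly 1 class with saline. With cells thinned to 1500 UMIs, 10 were higher and 5 lower in stroma with saline, 12 higher in endothelium and 17 higher in stroma with losartan against saline; 9 were then higher in every class and 14 in exactly 1 with saline, 8 and 7 with losartan, with Schwann cells out of the comparison. At a fold of 2, 0 were lower in stroma with saline, and 0 in epithelium and 5 in stroma were higher with losartan against saline. Without the cell with the most UMIs, 1 member was higher in Schwann cells and 1 in every class with saline, Plk2 in both. With at least 1000 genes per cell, 4 were lower in stroma with saline, 5 higher in stroma with losartan against saline, and 18 higher in both classes left with saline. At resolution 0.4, 1 member was higher in every class and 3 in exactly 1 with saline, over 4 classes instead of 3, since the mural class then held 135 uninjured, 190 NM + saline and 444 NM + losartan cells, 532 of them from the unnamed cluster. Chosen after seeing the data: superficial-like cells alone had 1 member lower with saline; within the shared stromal cluster 2 were higher and 4 lower with saline and 4 higher with losartan; without the cluster led by Mmp3 11 were higher and 5 lower with saline, 2 lower with losartan, and 23 higher with losartan against saline. The cause of these shifts was not tested. Counting endothelium with saline from 10 cells up, 5 of 27 measured members were higher and 0 lower (5.32% of genes higher): Cdkn1a, Ccng1, Ercc5, Polk and Ephx1. No paired analysis was possible because each group is 1 library. Depth limits the saline vascular endothelial and Schwann cells most, where 1 UMI is worth 35.0 and 29.4 CPM.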
